A study of Mus musculus with 6 samples.

Results

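Complement is a cascade of plasma proteins that tags surfaces and lyses cells, and this account follows 9 of its genes through 6 mouse mammary tumours. The genes are C1ra, C1s1, Masp1, C2 and Cfb, which encode proteases, the component C3, properdin (Cfp), the C1 inhibitor (Serping1) and the receptor C3ar1. Every probe set that the platform annotation gave to exactly 1 of these symbols was used. That gave 13 probe sets for 8 of the 9 genes, out of 12393 genes that had at least 1 such probe set. The annotation used here listed none for C3 alone, so C3 was not analysed here. All 8 genes had a probe set above the filter on dim values, among 9249 genes tested. The 9 genes were named with results of these same arrays in view, so their own differences between the groups are given as a description. Where their calls in the fit across all genes are counted, the count is not a test of the set.

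The Bptf KD group was 3 tumours grown from 4T1, a line of mouse mammary tumour cells, carrying short hairpin RNAs against Bptf, the largest subunit of the chromatin remodelling complex NURF. They had been delivered with the retrovirus MMLV. The Control group was 3 tumours grown from 4T1 cells labelled control, and the labels do not say what those cells carried. Both groups grew for 21 days after injection into a mammary fat pad, the fourth, of NSG mice, whose genotype the labels write as Ifrg2r -/-, and no age is given for the mice. Such mice have no mature lymphocytes or natural killer cells but keep myeloid cells, fibroblasts, fat cells and endothelium, and their NOD background carries a loss-of-function allele of Hc, the gene of complement component C5. Each tumour was measured on 1 Affymetrix array, and the values are log2 expression values from RMA. Necrotic tissue had been dissected away where it was present. Each value is a mixture of tumour and host cells, in which fewer cells of a type and less RNA per cell cannot be told apart. The labels do not tie tumours to single mice, so the spread between arrays may be in part technical.

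The cascade can start in 3 ways. In the classical pathway C1q binds a target and the proteases C1r and C1s then cleave C4 and C2. In the lectin pathway collectins and ficolins act through proteases such as Masp1. In the alternative pathway factor B (Cfb) joins activated C3, and properdin holds that enzyme together. All routes meet at C3, whose fragment C3a is read by C3ar1. The C1 inhibitor, a serpin, blocks C1r, C1s and the lectin proteases. The liver makes most plasma complement, but fibroblasts, fat cells and macrophages are known local sources of many of its components.

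The array medians ran from 7.65 to 7.70 in Bptf KD tumours and from 7.60 to 7.70 in controls. Control 2 stood apart: across genes, which are not independent replicates, it correlated with the other controls at 0.934 to 0.939, against 0.984 to 0.988 among the Bptf KD tumours. Its mean over 10 skeletal muscle markers was 12.0, where Bptf KD tumours had 6.21 to 9.58 and the other controls 6.40 to 9.41. Its mean over 4 keratinocyte markers was 10.3, where Bptf KD tumours had 7.38 to 7.56 and the other controls 7.17 to 7.40. Its Actb 3-prime to 5-prime difference was 1.23, against 0.76 to 1.05 in the other 5 tumours. Bptf, the target, was at 9.60, 9.56 and 9.99 in Bptf KD tumours and at 10.69, 9.77 and 10.59 in controls 1, 2 and 3. The groups overlapped through control 2, and the difference was -0.63 (SE 0.27, limma adjusted p = 0.371), short of the threshold of 0.05. That tumour is therefore counted as the tumour labelled control 2, and each member is also given without it. The epithelial markers Krt8 (13.9 to 14.2 in Bptf KD tumours, 14.00 to 14.04 in controls) and Epcam (12.5 to 12.9 in Bptf KD tumours, 11.0 to 12.2 in controls) were bright in all 6 tumours, with Epcam higher in every Bptf KD tumour than in any control. The lymphocyte markers Cd3e, Cd4 and Cd8a lay between 6.17 and 7.35, near the dim level of 6.09 below which probe sets were left out.

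The proteases and the inhibitor of the C1 complex were lower in Bptf KD tumours. C1s1, the protease that cleaves C4 and C2, was at 8.31, 7.69 and 7.64 in Bptf KD tumours, against 9.89, 10.60 and 10.49 in controls. All 3 Bptf KD tumours lay below all 3 controls, with a gap of 1.58 between the closest tumours. Means were 7.88 ± 0.37 in Bptf KD tumours and 10.33 ± 0.38 in controls (SD, n = 3 each). The difference was -2.45 (SE 0.26), a 5.45-fold lower level, and it was the 22nd largest of the 9249 genes by size. C1ra, the protease that activates C1s, was at 8.17, 7.66 and 8.16 in Bptf KD tumours, against 8.86, 9.75 and 9.18 in controls. Here too the groups did not overlap, though the gap was narrower, at 0.69. The C1ra difference was -1.27 (SE 0.26), a 2.41-fold lower level. Mouse has a second copy of each gene, C1rb and C1s2, next to this pair on the same chromosome. Neither copy had a probe set of its own here, and the C1s1 probe set, 1424041_s_at, has the suffix of sets whose probes match several transcripts. How much of either signal comes from the copies was not tested.

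C1ra and C1s1 are neighbours, with 0 protein-coding genes between them in the RefSeq gene table. Their promoter windows are shown because both genes were lower in the Bptf KD group. Each window holds 250 bases before and 50 after the start of the gene, on the strand of the gene, from RefSeq (GRCm38.p6). The table held 6 windows for 5 of the 9 genes. Capitals mark matches, on either strand, to a gamma-activated site (TTCNNNGAA), an interferon regulatory factor core (AANNGAAA), a CCAAT/enhancer-binding protein pattern (TTGCNNAA), a TATA box (TATAAA) or a GC box (GGGCGG). The C1ra window is chr6:124512371-124512670 on the plus strand, and the C1s1 window is chr6:124542310-124542609 on the minus strand.
C1ra: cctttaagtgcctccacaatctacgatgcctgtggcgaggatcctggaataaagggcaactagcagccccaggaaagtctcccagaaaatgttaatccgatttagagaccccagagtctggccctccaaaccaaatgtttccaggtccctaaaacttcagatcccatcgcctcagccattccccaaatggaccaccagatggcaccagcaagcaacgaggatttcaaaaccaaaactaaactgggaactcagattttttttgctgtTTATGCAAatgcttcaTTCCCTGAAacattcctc
C1s1: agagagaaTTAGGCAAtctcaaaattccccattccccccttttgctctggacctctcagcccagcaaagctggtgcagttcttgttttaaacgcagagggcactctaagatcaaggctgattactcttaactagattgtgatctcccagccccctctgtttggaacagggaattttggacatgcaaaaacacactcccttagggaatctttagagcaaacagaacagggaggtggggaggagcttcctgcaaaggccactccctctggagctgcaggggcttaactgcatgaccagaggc
The C1ra window held a gamma-activated site pattern at position 33 after the start, found in 8.30% of all 32851 promoter windows. It also held the CCAAT/enhancer-binding protein pattern at position 17, found in 10.8% of windows. The C1s1 window held that last pattern at position -242, outside the window of a second start listed for the gene. No other match was found in either window and none overlapped another. A match of letters is not a binding site.

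Serping1 encodes the C1 inhibitor, which stops C1r and C1s. It was at 10.01, 9.91 and 9.55 in Bptf KD tumours, against 11.49, 11.89 and 11.84 in controls. The groups were 1.48 apart at their closest, and neither spanned more than 0.46. Means were 9.82 ± 0.24 in Bptf KD tumours and 11.74 ± 0.22 in controls (SD, n = 3 each), a difference of -1.92 (SE 0.18) and a 3.78-fold lower level. Serping1 lay lower in every Bptf KD tumour than in any control, as C1ra, C1s1 and 8.17% of all genes tested did.

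C2 and Cfb encode proteases of the same family, which cut C3 in the classical and the alternative pathway. The RefSeq gene table places them side by side. C2 was at 6.87, 6.71 and 6.70 in Bptf KD tumours, against 7.67, 8.45 and 8.33 in controls. The Bptf KD tumours differed among themselves by at most 0.17 and lay not far above the dim level, so background may take up part of these values. The C2 difference was -1.39 (SE 0.22), a 2.62-fold lower level. Cfb was at 8.82, 9.04 and 8.52 in Bptf KD tumours, against 9.53, 10.12 and 9.98 in controls. The groups were 0.49 apart at their closest, and the difference was -1.08 (SE 0.21), a 2.12-fold lower level.

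**Figure D1:**
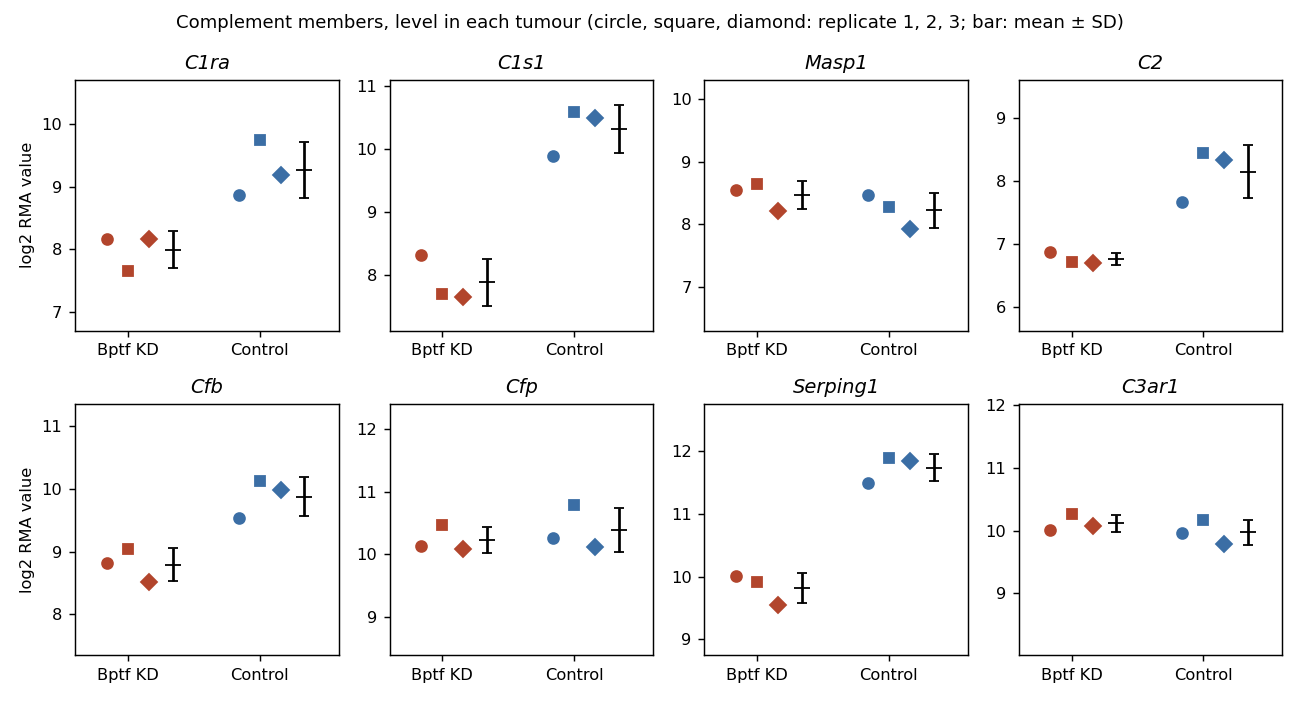
Level of each of the 8 measured genes in each tumour (vertical axis, log2 RMA value, spanning the same range in every panel), with Bptf KD tumours on the left of each panel and controls on the right; bars are the mean ± SD of 3 tumours. In C1ra, C1s1, C2, Cfb and Serping1 every Bptf KD tumour lies below every control, and in Masp1, Cfp and C3ar1 the groups overlap.

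In the other 3 genes the groups overlapped. Masp1, a protease of the lectin pathway, had 5 probe sets. The brightest, 1438602_s_at, was at 8.55, 8.64 and 8.21 in Bptf KD tumours, against 8.47, 8.28 and 7.92 in controls. Its difference of 0.24 (SE 0.19) was about as large as the SD within each group, 0.23 in Bptf KD tumours and 0.28 in controls. The other bright sets differed by 0.30 (1425985_s_at) and 0.25 (1438603_x_at). In 1438603_x_at, whose suffix marks probes that can match unrelated transcripts, the Bptf KD tumours at 7.03, 7.27 and 7.06 lay just above the controls at 6.94, 6.94 and 6.72. The remaining 2 sets were below the dim level and differed by -0.13 and -0.03. Masp1 thus did not share the lower level of C1ra and C1s1, proteases of like build, on any probe set above the dim level.

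Cfp encodes properdin, which stabilises the alternative pathway enzyme and is made by myeloid cells. It was at 10.13, 10.47 and 10.08 in Bptf KD tumours, against 10.26, 10.78 and 10.12 in controls. Its difference was -0.16 (SE 0.21), and the sign turned without the tumour labelled control 2 (0.04). C3ar1, the C3a receptor of myeloid cells, was at 10.01, 10.26 and 10.07 in Bptf KD tumours, against 9.96, 10.17 and 9.78 in controls. The difference was 0.14 (SE 0.15), and its other probe set, 1419483_at, differed by 0.26. In both genes at least 1 Bptf KD tumour lay between the lowest and the highest control.

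The promoter windows of these genes that the table held are shown for comparison with those of C1ra and C1s1. The Cfp window is chrX:20931506-20931805 and the C3ar1 window is chr6:122856108-122856407, both on the minus strand.
Cfp: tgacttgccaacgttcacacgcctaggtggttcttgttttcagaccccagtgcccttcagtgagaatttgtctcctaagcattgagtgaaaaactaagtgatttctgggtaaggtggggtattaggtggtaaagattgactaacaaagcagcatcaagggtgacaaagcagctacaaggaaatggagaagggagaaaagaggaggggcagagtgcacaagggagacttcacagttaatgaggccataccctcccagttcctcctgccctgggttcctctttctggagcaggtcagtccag
C3ar1: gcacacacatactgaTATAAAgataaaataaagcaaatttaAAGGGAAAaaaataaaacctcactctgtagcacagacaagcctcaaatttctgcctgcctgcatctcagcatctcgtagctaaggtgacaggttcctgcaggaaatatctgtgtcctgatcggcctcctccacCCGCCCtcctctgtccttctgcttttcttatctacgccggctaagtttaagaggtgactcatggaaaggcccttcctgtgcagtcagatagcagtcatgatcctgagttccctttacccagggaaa
The Cfp window held none of the patterns. The C3ar1 window held the TATA box pattern, found in 13.6% of windows, at position -235. It also held the interferon regulatory factor core, found in 23.9%, at position -209 and the GC box, found in 35.7%, at position -76. No match in this window overlapped another.

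Of the 8 measured members, 5 lay lower in every Bptf KD tumour than in any control. Over all 9249 genes tested 8.17% did so. In the limma fit across all genes, 3 of the 8 (C1s1, Serping1 and C2) were among the genes with an adjusted p under 0.05 that were lower in Bptf KD tumours, which held 0.660% of all genes. Under 6 other processing choices, the replicate number as a block among them, C2 was no longer one of them. Without control 2 there were 5 of 8, with C1ra and Cfb, where 4.45% of all genes were called. The count was 0 of 8 without control 3 or without any 1 of the Bptf KD tumours, where the whole array had 0 to 10 such genes. The members were named with this comparison known, so nothing is read from these counts. Their median difference was -1.18, beside 0.06 over all genes tested.

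The levels also differed in order from tumour to tumour. Among controls, the tumour labelled control 2 was the highest and control 1 the lowest in all 5 of the genes that did not overlap. Control 2 was also the highest control in Cfp and C3ar1, 7 of 8 members in all. Among Bptf KD tumours, tumour 3 was the lowest in 4 of the 5 genes and tumour 1 the highest in 4. Tumour 2 was the exception, lowest in C1ra and highest in Cfb. Without the tumour labelled control 2, the differences were -2.31 for C1s1, -1.84 for Serping1, -1.24 for C2, -1.02 for C1ra and -0.96 for Cfb, so each remained near or above a 2-fold lower level. For Masp1 and C3ar1 the difference without it was 0.27 and 0.24.

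**Figure D2:**
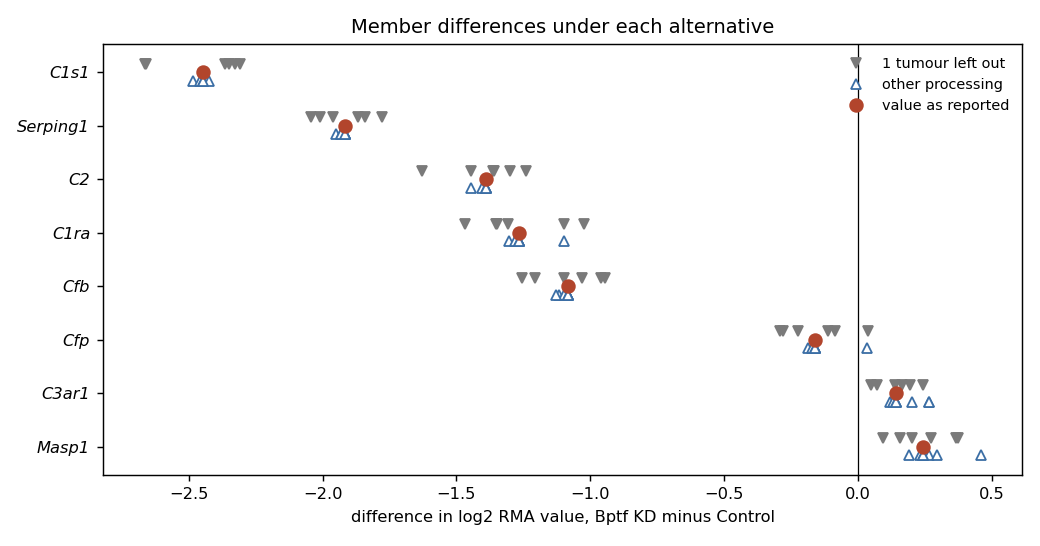
Difference between Bptf KD and control tumours (horizontal axis, log2 RMA value) for each member under each alternative; the filled circle is the value as reported, downward triangles leave out 1 tumour and upward triangles change the processing. C1s1, Serping1, C2, C1ra and Cfb stay below 0 throughout, with Cfb closest to it at -1.26 to -0.95, Cfp lies on both sides of 0, and C3ar1 and Masp1 stay above 0. Where every Bptf KD tumour lies below every control, leaving out 1 tumour cannot turn the sign.

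The genes whose profile over the 6 tumours was most like that of each member were found by the root-mean-square distance between log2 profiles, each centred on its own mean. They are a description over 6 tumours, in which many genes share the split between the groups. Nearest to Serping1 were Sfrp4 (distance 0.12) and Dcn (0.18), where Serping1 itself deviated from its mean by 0.98. C1s1 was nearest to Enpep (0.27) and Il33 (0.29), against a deviation of its own of 1.26. C1ra was nearest to Slc7a10 (0.17) and Tnxb (0.18), C2 to Cyp7b1 (0.12) and Adamts15 (0.13), and Cfb to Grb10 (0.11) and Loxl1 (0.11). All 10 of these genes had differences between -0.99 and -2.64. The distance takes in the size of the difference between the groups, so genes near these members were bound to have differences like theirs. Among the members, Serping1 was the 4th nearest of all genes to C1s1 (0.32), and C2 the 5th nearest to C1ra (0.21). C1ra was the 60th nearest to C1s1 (0.64). Their differences, -1.27 and -2.45, were unlike in size, which by itself adds to this distance. The other pairs of members that did not overlap between the groups ranked from 19th (Cfb to C2) to 494th (Serping1 to Cfb). Cfp was nearest to Crip1 (0.05) and Hsd17b4 (0.05), Masp1 to Mynn (0.07) and Aopep (0.08), and C3ar1 to Tbc1d20 (0.03) and Tle1 (0.03). These last 3 members hardly deviated from their own means (0.25, 0.24 and 0.15), so small distances are easily reached.

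The rest of the pathway was read from a list of 45 other complement genes. Of these, 33 had a probe set of their own and 16 were above the dim level. Limma called 0 of the 16 in either direction at an adjusted p under 0.05, where it called 0.811% of all genes. Without adjustment, 9 of the 16 had p under 0.05 (6 lower and 3 higher), a level that 13.5% of all genes reached. The median difference of the 16 was -0.03, and 8 were below 0. The groups did not overlap in 9 of the 16, with 5 lower and 4 higher in Bptf KD tumours. Over all genes tested 8.17% lay lower without overlap, and the share that lay higher is not given here.

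No recognition molecule passed the test, and their differences had both signs. C1q, which starts the classical pathway and is made by macrophages, was among the brighter signals. C1qb was at 13.31, 13.40 and 13.54 in Bptf KD tumours, against 13.11, 13.14 and 12.80 in controls. C1qc was at 12.37, 12.42 and 12.51 in Bptf KD tumours, against 12.30, 11.87 and 11.92 in controls. The groups did not overlap in either, yet the differences of 0.40 each did not pass (limma adjusted p = 0.301 for C1qb and 0.326 for C1qc). C1qa, named after its values were seen, differed by 0.26 (limma adjusted p = 0.423). The 2 other probe sets of C1qb overlapped between the groups and differed by 0.18 and 0.25. The brightest C1q probe sets therefore had positive differences in the tumours where C1ra and C1s1 had negative ones. The scavenger collectin Colec12 differed by -0.91 (limma adjusted p = 0.159) and the ficolin Fcna by -0.48 (limma adjusted p = 0.283).

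Among regulators and receptors, Vsig4, a receptor of resident macrophages for C3 fragments, was at 7.65, 7.82 and 7.29 in Bptf KD tumours, against 8.26, 9.37 and 9.18 in controls. The groups did not overlap, and the difference of -1.35 did not pass (limma adjusted p = 0.125). Clu, which encodes the chaperone and complement inhibitor clusterin, was at 12.88, 12.92 and 13.26 in Bptf KD tumours, against 12.77, 11.46 and 11.83 in controls. Its difference of 1.00 did not pass (limma adjusted p = 0.263). Without control 1, Vsig4 (-1.69, limma adjusted p = 0.0294) and Clu (1.38, limma adjusted p = 0.0478) passed, where 0.789% of all genes did. Over the 15 alternatives their adjusted p from limma ran from 0.00686 to 0.432 for Vsig4 and from 0.0202 to 0.670 for Clu. Cfi, the protease that breaks down activated C3 and C4, differed by -1.11 (limma adjusted p = 0.191), with Bptf KD values of 5.80, 6.26 and 5.76 near or below the dim level. C6, of the terminal complex that lyses cells, differed by -0.47 (limma adjusted p = 0.170). The integrin chains Itgam, Itgax and Itgb2 of complement receptors and the C5a receptor C5ar1, named outside the rule, had differences between -0.13 and 0.16.

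**Figure D3:**
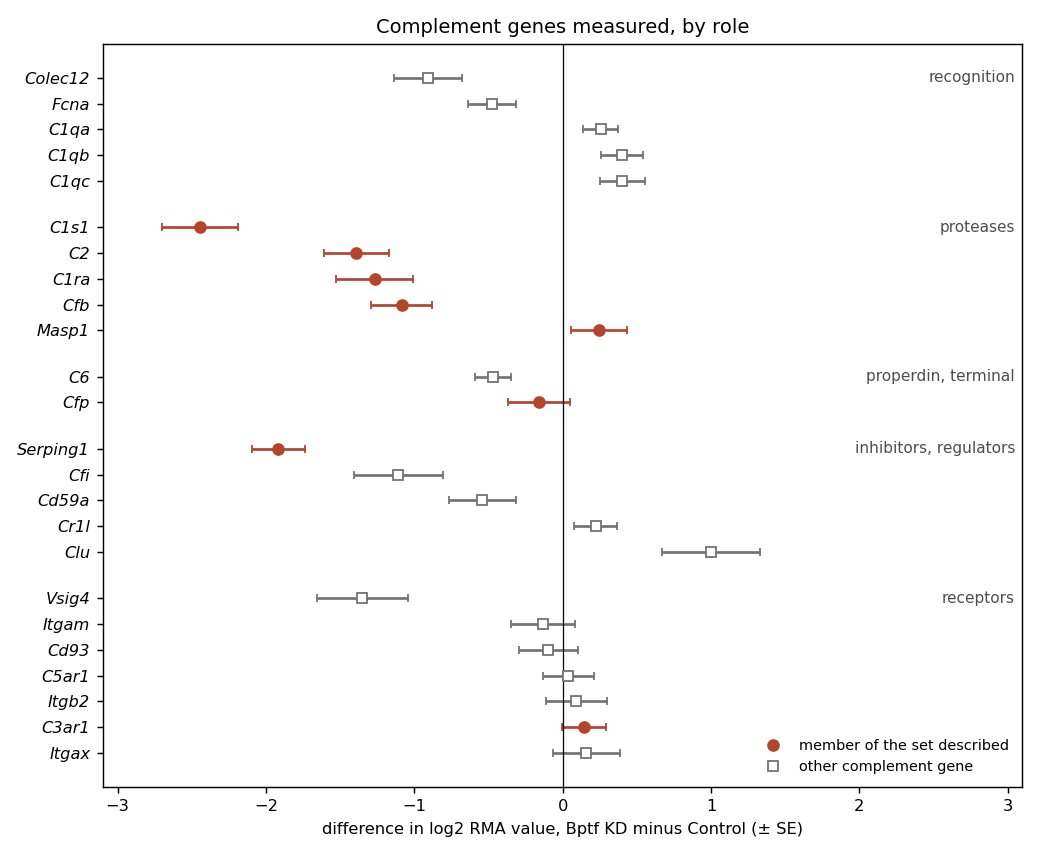
Difference between Bptf KD and control tumours (horizontal axis, log2 RMA value, ± SE of the limma fit) for the 8 members (filled circles) and the 16 other complement genes measured (open squares), grouped by role. C1s1, at -2.45, and Serping1, at -1.92, lie furthest to the left, and Clu, at 1.00, furthest to the right.

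Markers of other cell types differed between the groups alongside the members. All 9 measured adipocyte markers, out of 10 listed, had negative differences. Their mean level was 6.85 to 7.89 in Bptf KD tumours, against 9.95 to 10.8 in controls, and limma called 6 of the 9 lower. Over all genes tested it called 0.660% lower. Adipoq, which encodes adiponectin, differed by -4.65, the fatty acid binding protein Fabp4 by -2.85 and the lipid droplet coat Plin4 by -2.65. All 12 fibroblast markers had negative differences too, with a mean level of 10.0 to 10.3 in Bptf KD tumours, against 11.2 to 11.5 in controls, and limma called 5 of the 12 lower. The collagen genes Col1a1, Col1a2 and Col3a1 differed by -1.81, -0.90 and -0.91, and of these Col1a2 was not called (limma adjusted p = 0.181). Neither list mean overlapped between the groups, and the part of these cells in the levels of the members was not tested.

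The mean of the general macrophage markers overlapped between the groups, while 3 of its 9 genes did not. Over all genes tested, 8.17% lay lower in every Bptf KD tumour than in any control. That share covers only the lower direction, in which Mrc1 and Cd163 lay. Lyz2 lay higher, and the share of all genes that did so is not given here. The mean level of the 9 macrophage markers measured, out of 10 listed, was 10.8 to 11.2 in Bptf KD tumours, against 11.0 to 11.3 in controls. Limma called 0 of them, with 2 of the 9 at an unadjusted p under 0.05, a level that 13.5% of all genes reached. The leading markers of the list, Adgre1, Csf1r and Cd68, differed by -0.09, 0.06 and 0.23. The 3 genes without overlap were named after their values were seen. Mrc1, the mannose receptor, differed by -0.75 (limma adjusted p = 0.136) and the lysozyme gene Lyz2 by 0.26 (limma adjusted p = 0.439). Cd163, a scavenger receptor of resident macrophages, differed by -2.13 (limma adjusted p = 0.0637). The myeloid genes Cfp and C3ar1 overlapped between the groups, as the mean of this list did. Vsig4 and the brightest probe sets of C1qb and C1qc, also genes of macrophages, did not overlap. The part of macrophages in any of these levels was not tested. Mean levels of the 8 endothelial markers were 7.24 to 7.32 in Bptf KD tumours, against 7.28 to 7.71 in controls, with 1 called lower, as 0.660% of all genes were. Of the 7 hepatocyte markers listed, 2 were above the dim level, at a mean of 6.23 to 6.48 in Bptf KD tumours and 6.44 to 6.64 in controls. The 8 epithelial markers of the tumour cells had a mean of 11.2 to 11.3 in Bptf KD tumours, against 10.1 to 11.0 in controls, and limma called 0 of them, with 3 at an unadjusted p under 0.05. Mast cell markers, 5 of 7 measured, had a mean of 6.63 to 7.22 in Bptf KD tumours, against 7.29 to 8.78 in controls, and limma called 0 of the 5, with 1 at an unadjusted p under 0.05.

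**Figure D4:**
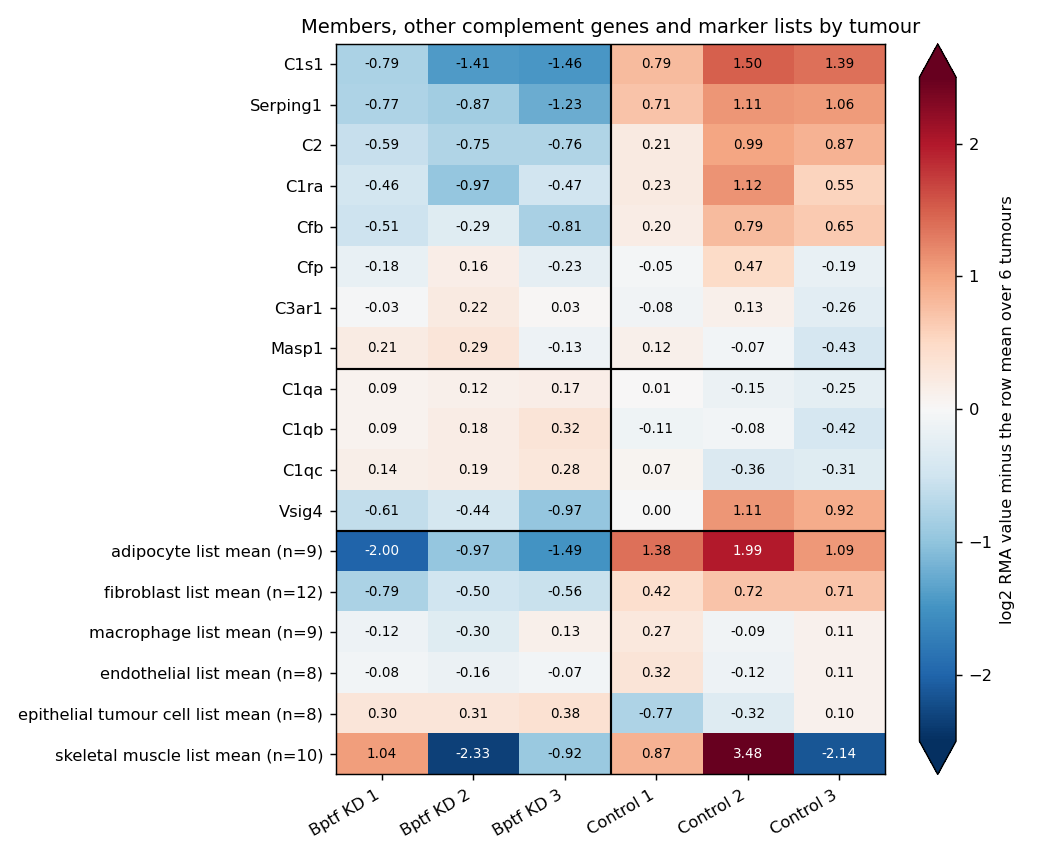
Log2 RMA value minus the mean of its row over the 6 tumours (colour and printed number) for the members, 4 other complement genes and the means of 6 marker lists, with Bptf KD tumours left of the line and controls right of it. The 5 upper rows and the adipocyte and fibroblast lists are negative in all 3 Bptf KD tumours and positive in all 3 controls, while the C1q rows are positive in all 3 Bptf KD tumours and the muscle list is highest in the tumour labelled control 2.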

How the data were processed

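Gene expression was measured in 3 Bptf KD and 3 control tumours, with 1 array each. The authors deposited log2 expression values from RMA (background correction, quantile normalisation and probe set summary), without a version, per the submitters' processing notes. The base was taken as 2, RMA's own scale, from a range of 2.98 to 15.17. RMA gives no detection call, and quantile normalisation sets all arrays to 1 distribution, so differences are relative to the other genes. Of 22690 probe sets, 64 are the manufacturer's controls, 20380 had 1 gene in the platform annotation, 691 several and 1555 were unnamed here; 29 had no match in the RefSeq gene table (GRCm38.p6), used for names and neighbours. The probe set with the highest mean stood for a gene, and those in the lowest 30% by mean (below 6.09) were left out, which left 9249 genes.

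Differences are log2 Bptf KD minus control from limma 3.58.1 in R 4.3.3 (lmFit, eBayes, no covariate), and every adjusted p comes from this fit with Benjamini-Hochberg adjustment over all genes tested, threshold 0.05. The procedure was tested on simulated data. These had independent noise with the same SD in both groups, so they held no tumour that stands apart as control 2 does. In them limma called 59.3% of genes given a difference of 1 in either direction and 89.95% of those given 2. A difference near 1 can therefore go uncalled. An exact two-sided permutation test of 3 against 3 arrays cannot go below 0.1 and was not used. The number of arrays limits the precision. The members and lists were chosen with earlier results of these data known. The genes to be named were the members, the 8 other complement genes with the smallest p, the 2 genes nearest to each member, Bptf and the leading markers measured of 3 lists; others are said to be named after their values were seen. The alternatives were other filters, probe set rules, normalisations, variance models, the replicate number as a block, array weights and leaving out each tumour.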

Additional observations from a re-analysis of the deposited data

How the results depend on the processing

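Each result was recomputed under 15 alternatives. C1s1, C1ra, Cfb and Serping1 stayed lower in Bptf KD tumours under all 15. C2 did so under the 14 that kept it, since the stricter filter on dim probe sets left it out. In these genes every Bptf KD tumour lay below every control, so leaving out 1 tumour could not turn the sign. Each has 1 probe set, so filters, probe set rules, variance models and the replicate block could not change the difference. Cfp was positive under 2, array weights and without control 2, and Masp1 and C3ar1 stayed positive. No member's difference moved by more than 1 SD of its replicates, a shift that leaving out 1 tumour of a group of 3 cannot reach. Genes called over the whole array numbered 42 with the stricter filter, against 75, and 1680 with array weights, where the estimate of the weights stopped before it converged. The count ran from 0 (without Bptf KD 3) to 412 (without control 2) when 1 tumour was left out. Of the other complement genes, limma called 8 with array weights and from 0 to 2 (Vsig4 and Clu, without control 1) when 1 tumour was left out, against 0 otherwise. The members C1s1, Serping1 and C2, past the threshold with all tumours, were not past it without control 3 or without any 1 of the Bptf KD tumours. C2 alone also missed it with no filter, the mean of all probe sets, the probe set with the largest SD, a second quantile normalisation, median centring and the replicate block. Deviations of tumours with the same replicate number correlated at 0.01, 0.28 and 0.37 across genes. Tumours with unlike numbers were not compared, so whether the numbers pair the tumours was not tested. With the replicate number as a block, 107 genes were called. Signal close to background limits C2, Cfi and the 17 complement genes of the wider list below the dim level.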

Other observations

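Some complement genes lay below the dim level on every probe set and were in no test. Hc, the C5 gene, averaged 4.50 ± 0.03 in Bptf KD tumours and 4.71 ± 0.08 in controls (SD, n = 3 each). The 2 probe sets of Cd55, which encodes a membrane regulator that dissociates the C3-cutting enzymes, averaged 4.32 and 4.18 in Bptf KD tumours, against 5.58 and 5.54 in controls. Both differences, -1.26 and -1.36, were close in size to that of C1ra, but at this brightness how much is background is not known. The mannose-binding lectins Mbl1 and Mbl2 and the lytic components C8a, C8b, C8g and C9 differed by -0.20 to 0.17. These genes were named after their values were seen.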
